A study of Mus musculus with 30 samples.

Results

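Type I interferon-stimulated genes are described here across 10 groups of mouse CD11b+ cells. The group was defined by a list of 39 gene symbols. Of these, 38 were found among the 18194 genes that the array annotation names with a single symbol, and Oas1g was not found. Where a gene had several probe sets, the one brightest on average across the 30 arrays was read.

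Type I interferons are secreted cytokines that signal through a receptor made of the chains Ifnar1 and Ifnar2. The receptor activates a transcription factor complex that contains Stat2 and Irf9, and this complex binds a DNA element in the promoters of interferon-stimulated genes. The products of these genes sense viral nucleic acid, block viral replication and shut the signal down again. Myeloid cells express many of them at a basal level without infection, and interferon gamma induces part of the same set.

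The samples were CD11b+ cells enriched with magnetic beads, 3 arrays in each group. CD11b is the integrin chain encoded by Itgam and marks monocytes, macrophages and granulocytes. In the BALB/c strain, cells came from healthy spleen, from the spleen and from the tumor of mice carrying C26-GM (a colon carcinoma line that secretes GM-CSF), from 4T1 tumors (a mammary carcinoma line), from fresh bone marrow, and from marrow cultures grown over 4 days in GM-CSF plus either IL-6 or G-CSF. In the C57BL/6 strain, cells came from healthy spleen, from EL-4 tumors (a T cell lymphoma line) and from MCA203 tumors (a fibrosarcoma line). Age, sex, tumor stage and any pooling of mice are not given in the sources used here, and the labels name no genetic change in the mice. Nothing states whether the 3 arrays of a group came from separate mice or cultures, so the p-values measure spread between arrays. That spread is pooled for each gene over all 10 groups, as is each SE, and can differ from that in the compared groups.

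Values are log2 expression. A gene was called risen or fallen where limma's adjusted p was below 0.05 and the change was at least 1 on the log2 scale, which is 2-fold. Itgam lay above at least 92.6% of genes in every group and Itgb2, its partner chain, above at least 99.1%. The free-text description of the C57BL/6 healthy spleens names the other strain, whereas their titles and strain field say C57BL/6. H2-Ea, which C57BL/6 mice do not express, had a mean of 6.81 there against 12.9 in BALB/c healthy spleen. The third C26-GM tumor array stood apart from its group: its actin 3′ probe set exceeded the 5′ one by 2.42 log2 units, against at most 0.68 on the other arrays, and its Itgam was 9.15 against 11.6 and 11.3 on the other C26-GM tumor arrays. Among the 6 culture arrays, 4 had a narrow distribution of values (interquartile range 2.54 to 2.60) and 2 a wide one (3.28 and 3.37), in both cytokine groups. Counts of members called are given with and without the third C26-GM arrays (spleen and tumor together) and by the width of the culture arrays, settings chosen after seeing the data. Shares of all genes were not counted for fits that left out a single array.

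The activated complex binds the interferon-stimulated response element, so the promoter stretches that hold the core letters of this element are shown first. RefSeq windows of 300 bases (250 before and 50 after the annotated start, assembly GRCm38.p6) were matched for 27 of the 38 genes. The motif GAAANNGAAA was searched on both strands (as TTTCNNTTTC on the reverse), and a gene with several windows counted where any of them matched. It was present for 11 of these 27 genes, or 40.7%, and for 3.99% of 27025 genes with a window. Below are the upstream stretches of Ifit1, Ifit3, Rsad2, Oas3, Bst2 and Ddx60, picked from the genes with a match upstream of the start. Each runs 5′ to 3′ on the gene's own strand, and capitals mark the motif. Overlapping matches run together.
Ifit1, chr19:34640770-34640828, plus strand: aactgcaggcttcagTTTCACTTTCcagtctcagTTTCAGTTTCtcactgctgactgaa
Ifit3, chr19:34583358-34583431, plus strand: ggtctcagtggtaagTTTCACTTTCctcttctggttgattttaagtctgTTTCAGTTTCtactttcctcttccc
Rsad2, chr12:26456548-26456587, minus strand: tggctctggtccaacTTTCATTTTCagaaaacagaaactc
Oas3, chr5:120777710-120777749, minus strand: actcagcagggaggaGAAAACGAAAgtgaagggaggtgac
Bst2, chr8:71537572-71537617, minus strand: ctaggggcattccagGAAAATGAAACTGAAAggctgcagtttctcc
Ddx60, chr8:61928019-61928086, plus strand: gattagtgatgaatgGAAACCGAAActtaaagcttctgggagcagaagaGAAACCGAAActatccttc

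Ifit1 and Ifit3 held 2 separate matches each, starting 104 and 85 bases before the Ifit1 start and 156 and 122 bases before the Ifit3 start. In Bst2 the 2 matches overlapped, at 130 and 124 bases before the start. Oas1a, Stat2 and Trim30a also held a match upstream of the start, and Ifih1 and Eif2ak2 held theirs only within the 50 bases after it. Irf7, Irf9, Ifit2 and Cmpk2 were among the 16 genes without these letters in any window.

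Across the 10 groups the 38 genes ranged widely and largely together. The range between the lowest and the highest group mean had a median of 2.99 log2 units over these genes and 1.05 over all genes. MCA203 tumor held the highest mean for 25 of the 38, against 7.48% of all genes. The lowest mean lay in a bone marrow culture for 28 (10 with IL-6, 18 with G-CSF) and in C26-GM spleen for 5, against 9.35%, 8.82% and 3.26% of all genes in these 3 groups. As a description over the 10 group means, which share arrays, a gene's Pearson r with the median of the other members had a median of 0.907 and exceeded 0.8 for 28 genes. Herc6, a ubiquitin ligase of the interferon response, had the highest r (0.98), and Adar (0.34), Samd9l (0.43) and Mx2 (0.45) had the lowest.

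**Figure D1:**
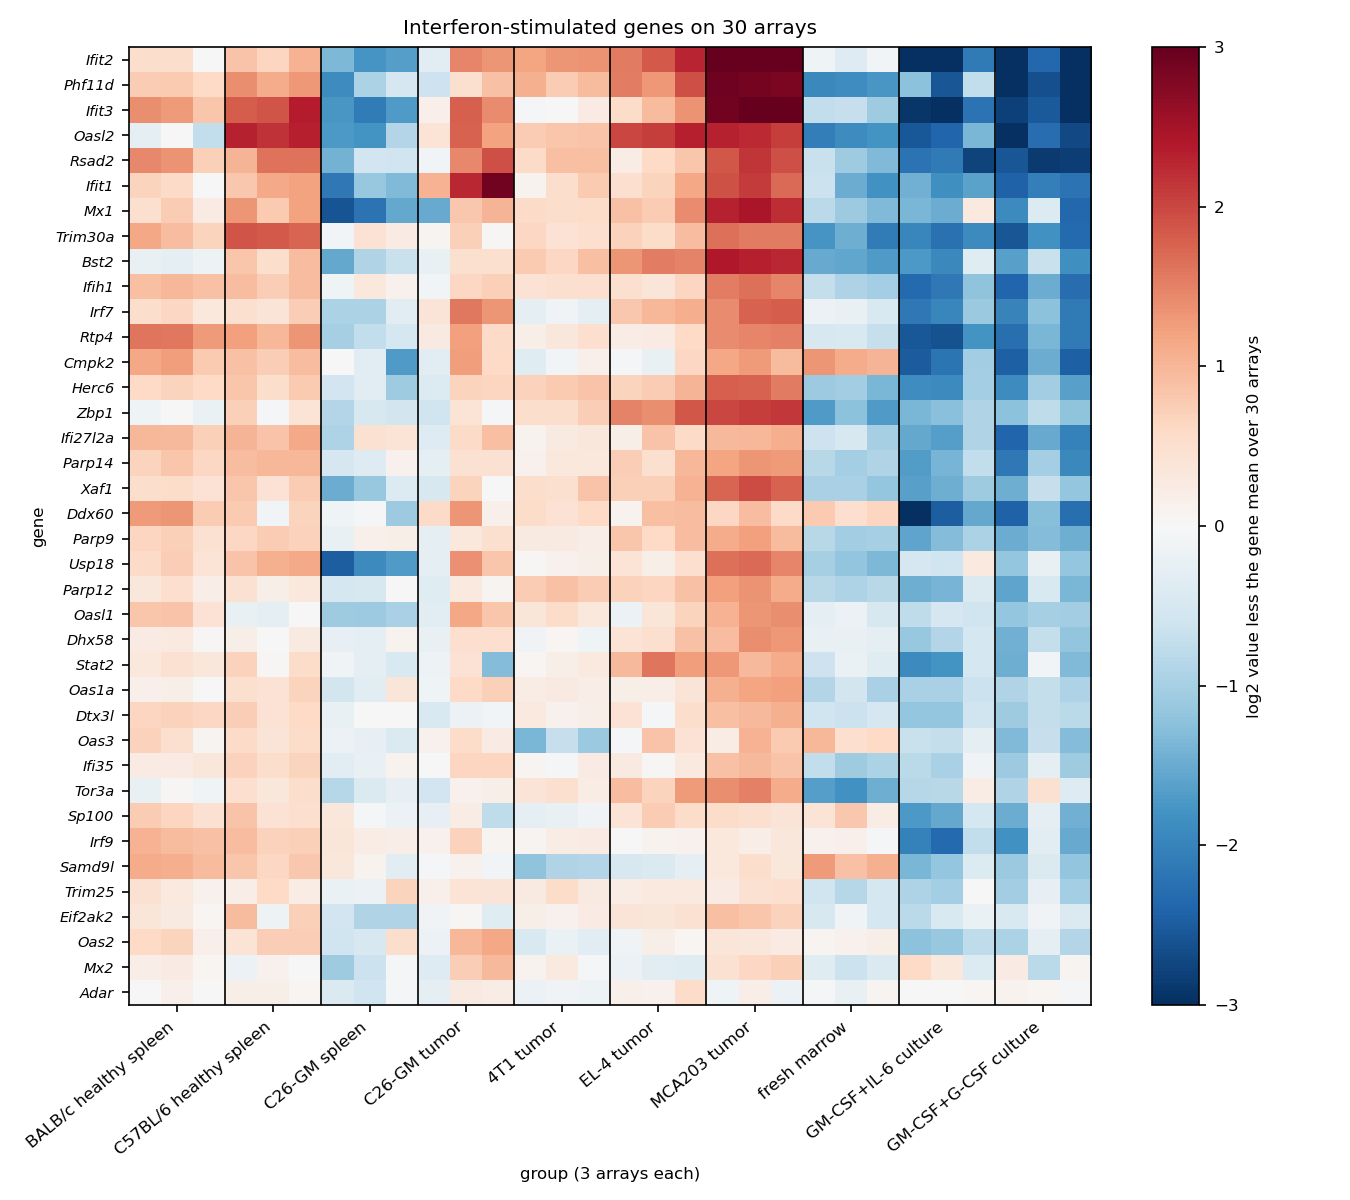
Level of each of the 38 genes (rows) on each of the 30 arrays (columns, 3 per group), as the log2 value less that gene's mean over all arrays (red above, blue below, colours end at 3 log2 units either way). Most rows are reddest in MCA203 tumor and bluest in the bone marrow cultures and C26-GM spleen, Samd9l is red in fresh marrow, and Adar is pale throughout.

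The transcription factors differed in how far they moved. Irf7, which amplifies interferon production, had group means from 7.33 and 7.37 in the cultures through 8.38 in C26-GM spleen and 9.61 in BALB/c healthy spleen to 10.8 in MCA203 tumor. Irf9, the DNA-binding subunit of the interferon-activated complex, lay between 8.32 and 9.21 in the 8 groups outside culture and was 6.55 and 7.02 in culture. Stat2, its partner, was highest in EL-4 tumor (8.25) and MCA203 tumor (8.10) and lowest with GM-CSF plus IL-6 (5.55). Usp18, a protease that switches the receptor off, had its lowest mean in C26-GM spleen (6.19) and its highest in MCA203 tumor (9.83).

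Among the sensors of viral nucleic acid, Ifih1 (the RNA helicase MDA5) spanned 6.65 in the GM-CSF plus G-CSF culture to 10.3 in MCA203 tumor. Dhx58 (the helicase LGP2) spanned 6.64 to 8.95 between the same groups. Zbp1, a sensor of Z-form nucleic acid, was lowest in fresh marrow (7.02) and highest in MCA203 tumor (10.6), with EL-4 tumor next at 10.1. The kinase Eif2ak2 (PKR), which halts translation, spanned only 5.84 in C26-GM spleen to 7.44 in MCA203 tumor.

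Among the antiviral effectors of the panel the spans were uneven. Ifit2, which binds viral RNA together with its relatives Ifit1 and Ifit3, ran from 4.27 in the GM-CSF plus G-CSF culture to 10.8 in MCA203 tumor, and Ifit3 from 4.83 to 10.7 between the same groups. Ifit1 differed in that C26-GM tumor (9.30) and MCA203 tumor (9.13) were both at the top, with SDs of 0.94 and 0.19 (n = 3 each), so their order is not settled. Rsad2 (viperin), Mx1 (a GTPase against influenza viruses) and Bst2 (tetherin, which holds budding virus at the membrane) all peaked in MCA203 tumor, at 11.3, 9.49 and 10.3. Oas2, a synthase of the messenger that activates RNase L, had its highest means in C26-GM tumor (9.34, arrays 8.51, 9.67 and 9.85) and C57BL/6 healthy spleen (9.31, arrays 9.10, 9.41 and 9.42), whose order is not settled, and its group means lay within 1.71 log2 units. Adar, an RNA-editing enzyme, spanned only 0.65, from 8.22 to 8.87.

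**Figure D2:**
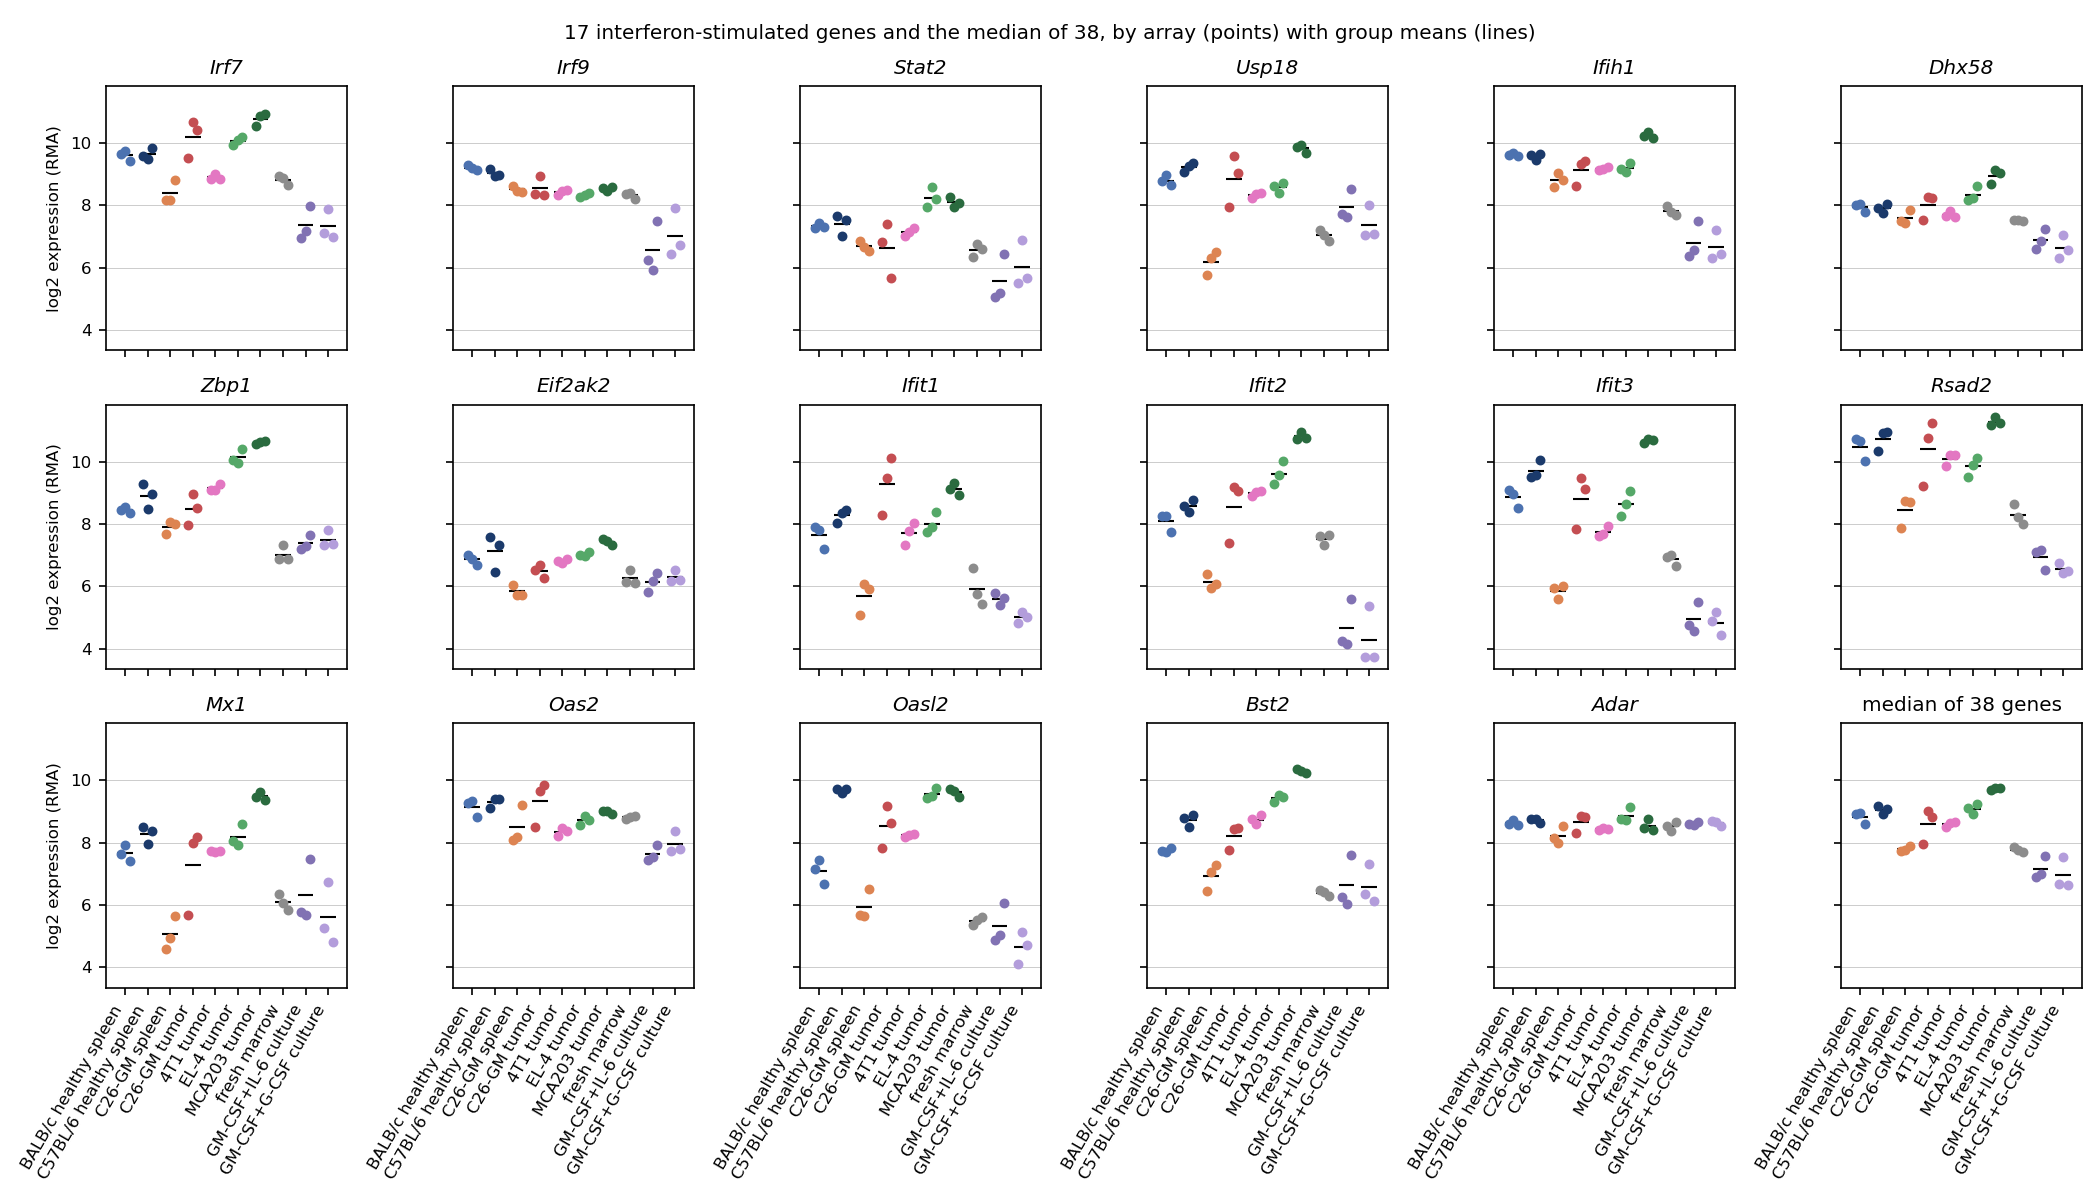
Log2 expression of 17 of the genes, ordered from transcription factors and feedback through sensors to effectors, and the median of all 38, on each array (points, 3 per group) with the group mean (line). MCA203 tumor sits at or near the top in most panels, C26-GM spleen lies below BALB/c healthy spleen in all of them by its mean, and single arrays stand away from their group in C26-GM tumor and in the cultures.

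The first comparison asked how CD11b+ cells of the spleen differ between C26-GM-bearing and healthy BALB/c mice. Interferon-stimulated genes were lower in the tumor-bearing mice: 17 of 38 fell and 0 rose, and all 38 changes lay below 0. Over all genes, 3.83% fell and 2.32% rose. The median change of the members was -0.87, against 0.09 for all genes. Bulk arrays cannot tell fewer cells of a type from less RNA per cell, here and in every comparison that follows.

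Ifit3 fell furthest. It measured 9.08, 8.97 and 8.52 in healthy spleen and 5.94, 5.59 and 6.00 in C26-GM spleen, a change of -3.01 ± 0.30 (SE; limma adjusted p = 3.17e-08). Every C26-GM array lay far below every healthy one. Usp18 measured 8.78, 8.96 and 8.63 against 5.75, 6.30 and 6.51, a change of -2.61 ± 0.29 (limma adjusted p = 2.73e-07). Mx1 changed by -2.60, Rtp4 (a chaperone of receptors that is induced by interferon) by -2.23, Rsad2 by -2.04 and Ifit2 by -1.95. The arrays of the groups did not overlap for 34 of the 38 members, against 39.5% of all genes. Among the regulators Irf7 fell by 1.23, while Stat2 (-0.65) and Irf9 (-0.70) were not called. Of the 17 calls, 14 held whichever array was left out, and Oasl2, Eif2ak2 and Samd9l, near the threshold of 1, did not. Without the third C26-GM arrays 20 members fell, against 3.75% of all genes, with a median of -1.01. Eif2ak2 and Samd9l were then not called.

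In C26-GM tumor few members were called against BALB/c healthy spleen. Of 38 members 2 rose and 1 fell, against 4.26% and 7.13% of all genes, and the median change was -0.24 (0.11 for all genes). Ifit1 measured 8.28, 9.49 and 10.1 in the tumor and 7.91, 7.81 and 7.21 in healthy spleen, a change of 1.66 ± 0.34 (SE; limma adjusted p = 0.000438). Its groups did not overlap, but the first tumor array lay only a little above the healthy ones. The SE pools the spread of all 10 groups. The median SD of the members was 0.49 in C26-GM tumor and 0.15 in BALB/c healthy spleen. Oasl2, an OAS-like protein, rose by 1.46, and Samd9l, a restriction factor and growth suppressor, changed by -1.04. The tumor arrays disagreed with each other: the median of the members was 7.95, 9.03 and 8.84, and the first array was the lowest of its group for 31 of 38 members, against 33.7% of all genes. Without the second array 4 members fell. Without the third C26-GM arrays 2 rose and 1 fell, against 4.59% and 6.61% of all genes, with a median of -0.25.

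Compared directly with the spleen of C26-GM-bearing mice, the tumor was higher: 16 of 38 members rose and 0 fell, against 2.79% and 3.36% of all genes, with a median change of 0.62 (0.00 for all genes). Ifit1 measured 5.09, 6.08 and 5.90 in the spleen, below all of the tumor values given above, and rose by 3.61 ± 0.34 (SE; limma adjusted p = 1.2e-08). Ifit3 measured 7.83, 9.48 and 9.12 in the tumor and rose by 2.96, Usp18 by 2.67, Oasl2 by 2.60, Ifit2 by 2.41 and Mx1 by 2.22. Irf7 rose by 1.83. The arrays of the groups overlapped for Mx2, Xaf1, Cmpk2 and Phf11d, and these calls, with Ddx60, were lost when some single array was left out. With only the compared groups in the model 10 members rose, against 2.39% of all genes. Without the third C26-GM arrays 14 rose and 0 fell, against 2.90% and 3.61% of all genes, with a median of 0.61.

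The 4T1 infiltrate was mixed against BALB/c healthy spleen. Of 38 members 1 rose and 5 fell, against 6.83% and 5.44% of all genes, with a median change of -0.27 (-0.01 for all genes). Samd9l measured 8.38, 8.69 and 8.72 in 4T1 tumor and 10.7, 10.7 and 10.5 in healthy spleen, and changed by -2.05 ± 0.21 (SE; limma adjusted p = 1.27e-08). Oas3, a synthase of long messengers for RNase L, measured 6.44, 7.11 and 6.70 against 8.50, 8.28 and 7.88 and changed by -1.47. Both groups were clear of each other for these genes. Cmpk2 (a mitochondrial nucleotide kinase) changed by -1.17, Rtp4 by -1.14 and Ifit3 by -1.11, while Oasl2 rose by 1.15. Without the first healthy spleen array 3 members fell, and without the second 4T1 array 2 rose. The calls of Oasl2, Cmpk2 and Ifit3 were lost when some single array was left out. With every array centred on housekeeping genes, which moved the median of all genes from -0.01 to -0.27, 8 members fell and 0 rose, against 8.07% and 4.83% of all genes in that setting.

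Between the BALB/c tumors, 4T1 was lower than C26-GM for 5 members and higher for 0, against 3.90% of all genes fallen and 8.95% risen, with a median of -0.12 (-0.11 for all genes). Ifit1 changed by -1.59, Oas3 by -1.36, Irf7 by -1.31, Ifit3 by -1.06 and Samd9l by -1.01. Irf7 measured 8.84, 8.99 and 8.84 in 4T1 and 9.51, 10.7 and 10.4 in C26-GM tumor, so its groups were apart, whereas those of Ifit3 overlapped. Without the second C26-GM tumor array, or without the first 4T1 array, 3 members fell. The Ifit3 and Samd9l calls were the ones lost. Without the third C26-GM arrays 4 fell and 0 rose, against 4.37% and 8.24% of all genes. The median then moved to 0.01 (-0.09 for all genes).

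In C57BL/6 mice few of these genes were called between the EL-4 infiltrate and healthy spleen. Of 38 members 1 rose and 3 fell, against 6.42% and 4.40% of all genes, with a median of -0.09 (0.02 for all genes). Zbp1 measured 10.1, 9.95 and 10.4 in EL-4 tumor and 9.27, 8.49 and 8.96 in healthy spleen, and rose by 1.23 ± 0.22 (SE; limma adjusted p = 7.96e-05). Samd9l changed by -1.16, Trim30a, a regulator of Toll-like receptor signalling, by -1.11 and Ifit3 by -1.06. The Ifit3 call was lost without the third healthy spleen array or the first EL-4 array. Housekeeping centring moved the median of all genes to -0.48, and 9 members then fell and 0 rose, against 11.3% and 2.97% of all genes in that setting.

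MCA203 tumor cells were above their healthy spleen in several of these genes. Against C57BL/6 healthy spleen 8 of 38 members rose and 0 fell, against 5.01% and 5.42% of all genes, with a median of 0.57 (0.14 for all genes). Ifit2 measured 10.7, 11.0 and 10.8 in MCA203 tumor and 8.57, 8.37 and 8.77 in healthy spleen, a rise of 2.25 ± 0.40 (SE; limma adjusted p = 8.38e-05). The 3 arrays of each group lay close together and far from the other group. Zbp1 measured 10.6, 10.6 and 10.7 and rose by 1.71 ± 0.22 (limma adjusted p = 6.83e-07). Phf11d (a zinc finger protein of little known function) rose by 1.60, Bst2 by 1.58, Oasl1 (which restrains Irf7 translation) by 1.42 and Xaf1 (a promoter of cell death) by 1.15. Irf7 rose by 1.13 and Dhx58 by 1.06. Ifit1 (0.85), Mx1 (1.22), Rsad2 (0.55) and Usp18 (0.60) were not called. With housekeeping centring the median of all genes was -0.26, and 5 members rose and 0 fell, against 2.70% and 10.4% of all genes in that setting.

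MCA203 also exceeded EL-4: 9 of 38 members rose and 0 fell, against 1.40% and 3.88% of all genes, with a median of 0.71 (0.08 for all genes). Ifit3 measured 10.6, 10.7 and 10.7 in MCA203 tumor and 8.25, 8.65 and 9.04 in EL-4 tumor, a difference of 2.02 ± 0.30 (SE; limma adjusted p = 2.32e-05). The EL-4 arrays were the more spread, and all lay below every MCA203 array. Rsad2 was higher by 1.44, Phf11d by 1.28, Usp18 by 1.25, Ifit2 by 1.21 and Ifit1 by 1.12. Without the second EL-4 array, or without the second MCA203 array, 5 members rose. Calls lost on leaving out some array were those of Ifih1, Ifit1, Ifit2, Phf11d and Xaf1.

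**Figure D3:**
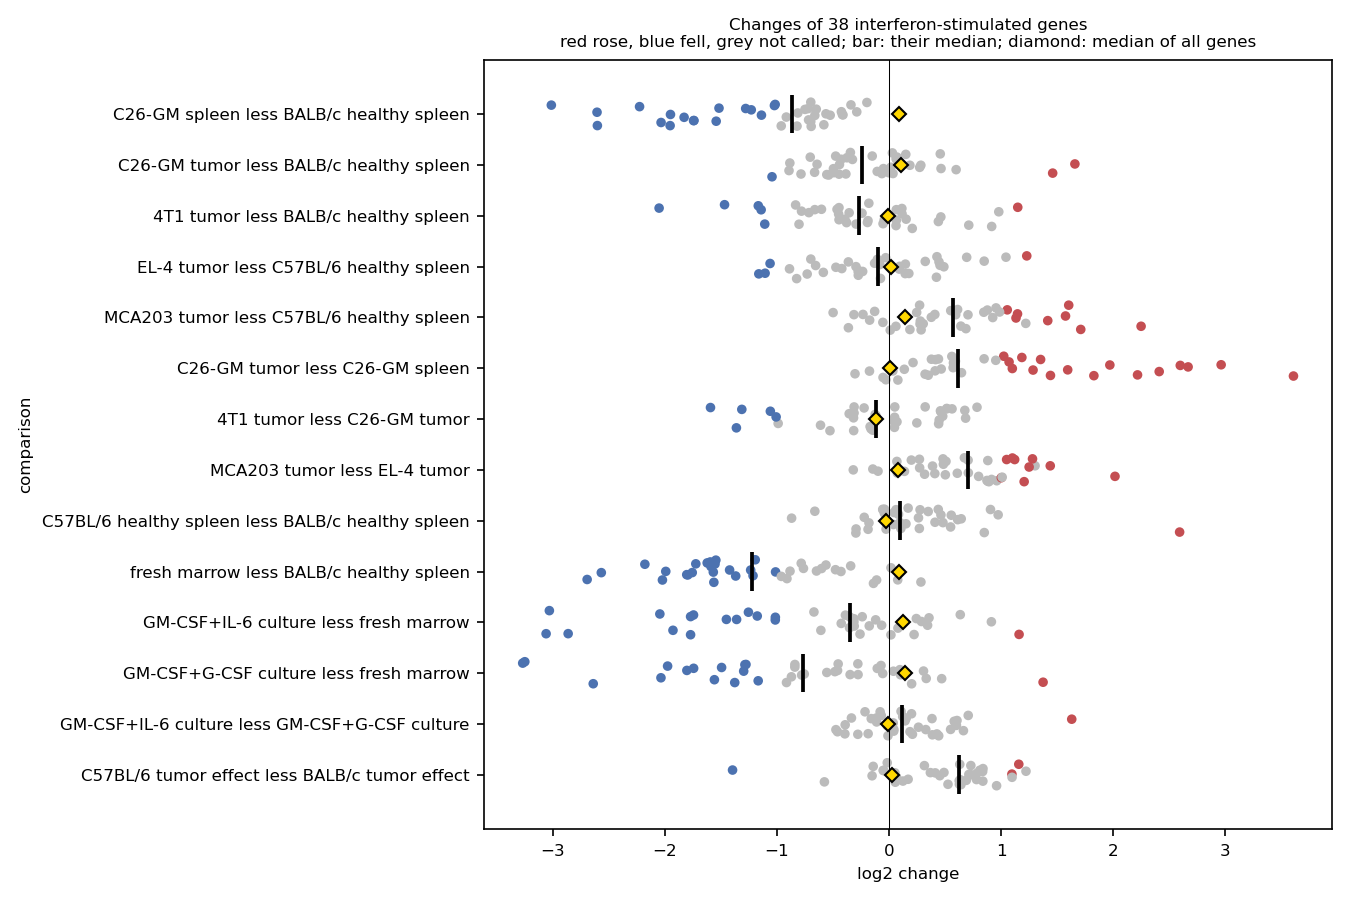
Log2 change of each of the 38 genes (points, jittered vertically) in each of the 14 comparisons, with risen genes red, fallen genes blue and the rest grey, the median of the 38 as a bar and the median of all 18194 genes as a diamond. The bar lies well left of the diamond for C26-GM spleen (-0.87 against 0.09) and fresh marrow (-1.22 against 0.09) and right of it for MCA203 tumor (0.57 against 0.14) and C26-GM tumor against C26-GM spleen (0.62 against 0.00).

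Between the healthy spleens of the strains 1 of 38 members was higher in C57BL/6 and 0 were lower, against 0.654% and 0.742% of all genes, with a median of 0.10 (-0.02 for all genes). The gene was Oasl2. It measured 9.72, 9.59 and 9.74 in C57BL/6 and 7.15, 7.44 and 6.68 in BALB/c, a difference of 2.59 ± 0.30 (SE; limma adjusted p = 1.89e-06). Oasl2 has a single probe set, of a type that Affymetrix marks as matching several transcripts, and with such probe sets left out it was not measured and 0 members were called. Whether a sequence difference between the strains lies under that probe set was not tested.

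The strain contrast was also set against the tumor contrast, as the mean change of the C57BL/6 tumors from their spleen less that of the BALB/c tumors from theirs. For 2 of 38 members this difference was above 0 and called, and for 1 below 0, against 2.83% and 2.11% of all genes, with a median of 0.63 (0.03 for all genes). Oasl1 differed by 1.16, Zbp1 by 1.10 and Oasl2 by -1.40. Oasl2 rose in both BALB/c tumors from its low spleen level, though its call in 4T1 tumor was lost with some array left out. It had changes of -0.13 in EL-4 and -0.06 in MCA203 tumor, not called. Each of the 3 calls was lost with some array left out. Without the third C26-GM arrays the counts were again 2 above and 1 below, against 2.88% and 2.49% of all genes, with a median of 0.62. The tumor lines differ between the strains, so strain and tumor line cannot be told apart.

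Fresh bone marrow was far below healthy BALB/c spleen. Of 38 members 22 fell and 0 rose, against 7.49% and 5.76% of all genes, with a median change of -1.22 (0.09 for all genes). Trim30a measured 7.76, 8.06 and 7.41 in marrow and 10.7, 10.5 and 10.2 in spleen, a change of -2.70 ± 0.20 (SE; limma adjusted p = 4.81e-11). Phf11d changed by -2.57, Rsad2 by -2.18, Rtp4 by -2.02, Ifit3 by -1.99 and Ifih1 by -1.81. The groups did not overlap for 31 of the 38 members, against 57.5% of all genes. Of the 22 calls, 20 held on leaving out any array, those of Mx1 and Oasl1 being the exceptions. Of the ADP-ribosyltransferases among the 38 genes, Parp14 fell by 1.62, Parp9 by 1.56 and Parp12 by 1.21, and Dtx3l, the ubiquitin ligase bound to Parp9, fell by 1.24. The other 16 members were not called. Cmpk2 was 9.11, 8.89 and 8.80 in marrow and 8.95, 9.05 and 8.58 in spleen, and Samd9l was 10.9, 10.5 and 10.7 against 10.7, 10.7 and 10.5.

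Marrow cultured with GM-CSF and IL-6 or G-CSF was lower than fresh marrow in many members. With IL-6, 14 of 38 members fell from fresh marrow and 1 rose, against 9.07% and 5.00% of all genes, with a median of -0.35 (0.12 for all genes). With G-CSF, 14 fell and 1 rose, against 9.37% and 4.48%, with a median of -0.77 (0.14 for all genes). Both contrasts share the marrow arrays. Cmpk2 measured 5.29, 5.59 and 6.74 with IL-6 and 5.34, 6.31 and 5.35 with G-CSF. It changed by -3.06 ± 0.39 (SE; limma adjusted p = 6.57e-07) and -3.27 ± 0.39 (limma adjusted p = 2.28e-07). Every culture array lay below every marrow array for this gene.

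Other effectors fell in both cultures too. Ifit2 changed by -2.86 with IL-6 and -3.25 with G-CSF, Ddx60 (a helicase that aids RNA sensing) by -3.03 and -2.64, Samd9l by -2.05 and -1.98, and Ifit3 by -1.93 and -2.04. Of the transcription factors, Irf9 changed by -1.77 and -1.30 and Irf7 by -1.45 and -1.49, and neither was called on the wide arrays alone (Irf9 -0.82 and -0.42, Irf7 -0.83 and -0.93). Tor3a, an ATPase of the endoplasmic reticulum, was the gene that rose in both, by 1.16 and 1.38. Its arrays measured 6.78, 6.80 and 7.85 with IL-6, 6.73, 8.10 and 7.25 with G-CSF and 5.98, 5.82 and 6.16 in marrow. Tor3a has 3 probe sets, and the one read is of the type marked as matching several transcripts. Without such probe sets it was not called in either culture. With IL-6 its call was also lost with the mean of all probe sets, with housekeeping centring and on leaving out some array. Dhx58 and Herc6, not called in either culture, had probe sets that moved more than 0.5 in opposite directions there.

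The width of the array distributions moved with these results. The 2 wide culture arrays, replicate 3 with IL-6 and replicate 2 with G-CSF, had member medians of 7.56 and 7.54. The 4 narrow ones had 6.65 to 6.999, and the fresh marrow arrays, all wide, 7.69 to 7.86. On the wide arrays alone the median change of the members was -0.08 with IL-6 (-0.03 for all genes). With G-CSF it was -0.35 (0.01 for all genes). The narrow arrays alone gave -0.58 (0.13 for all genes) with IL-6 and -1.02 (0.15) with G-CSF. With the wide culture arrays alone 8 members fell with IL-6 and 7 with G-CSF, and with the narrow ones alone 14 and 20. The shares of all genes fallen moved the same way, from 4.12% and 4.55% on the wide arrays to 13.6% and 13.1% on the narrow ones. All 8 and all 7 were also among those fallen on the narrow arrays: Cmpk2, Ddx60, Ifit2, Ifit3, Rsad2 and Samd9l in both cultures, Rtp4 and Sp100 with IL-6, and Oas3 with G-CSF. On the wide IL-6 array Bst2, Phf11d, Tor3a and Usp18 rose from marrow, against 8.89% of all genes. The part of the array distribution in the other calls was not tested. No label names a batch for these arrays, and a lone wide array in a group is assumed to vary as the other groups do.

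**Figure D4:**
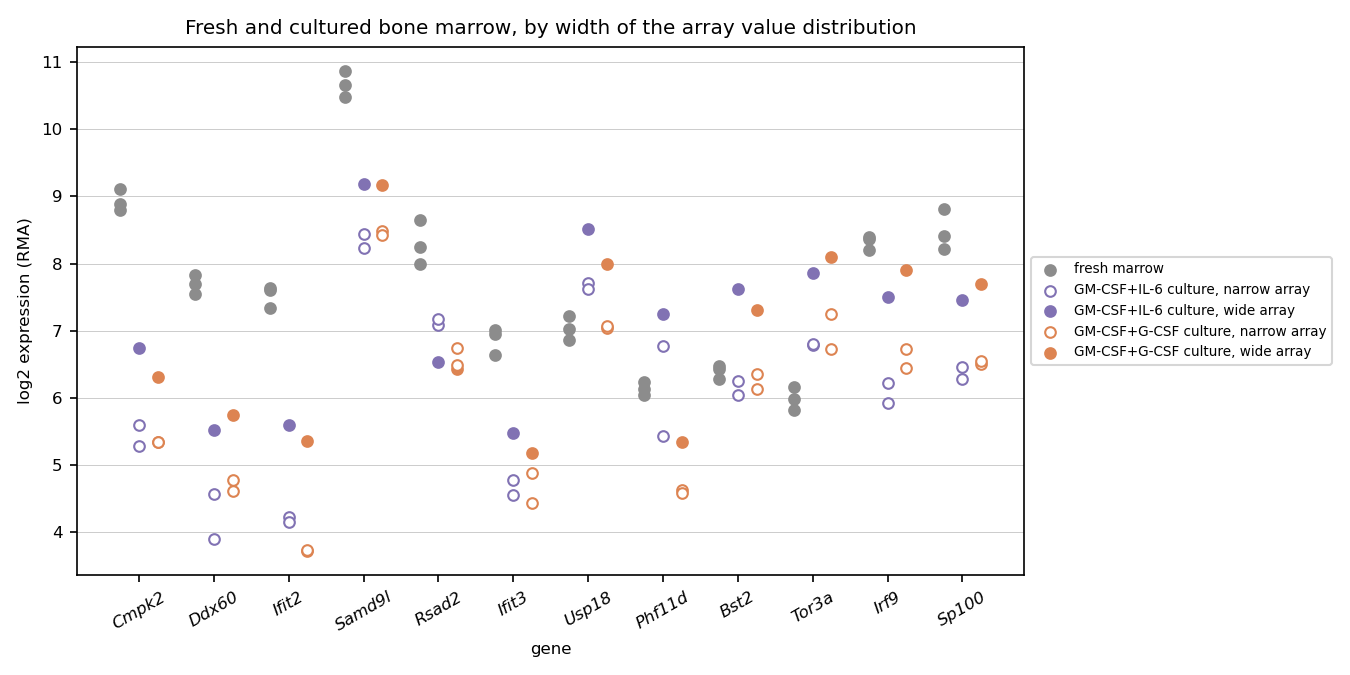
Log2 expression of 12 of the genes on the 3 fresh marrow arrays (grey), the GM-CSF+IL-6 arrays (purple) and the GM-CSF+G-CSF arrays (orange), with open circles for the 4 arrays with a narrow distribution of values and filled ones for the wide arrays. Cmpk2, Ddx60, Ifit2, Samd9l, Rsad2 and Ifit3 lie below marrow on every culture array, whereas Usp18, Phf11d and Bst2 differ between the narrow and the wide arrays.

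Between the cultures 1 of 38 members was higher with IL-6 and 0 were lower, against 0.456% and 0.198% of all genes, with a median of 0.11 (-0.01 for all genes). Phf11d measured 6.77, 5.43 and 7.25 with IL-6 and 4.63, 5.35 and 4.58 with G-CSF, a difference of 1.63 ± 0.36 (SE; limma adjusted p = 0.0153). The lowest IL-6 array lay just above the highest G-CSF array. The call was lost on leaving out replicate 1 or replicate 3 of either culture. With the wide arrays alone 0 members were called.

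In 8 comparisons no member was called in one direction, and limma's unadjusted p was below 0.05 with a change in that direction for 4 members in 4T1 above C26-GM tumor, 1 in C57BL/6 below BALB/c spleen and 0 in the other 6. Over all comparisons 35 of the 38 members were called at least once. Adar, Oas1a (a synthase of the RNase L messenger) and Trim25 (a ubiquitin ligase that activates RNA sensing) were not called in any. Oas1a was one of the brightest members, at 9.21 to 11.4 over the arrays. Adar was read by 3 probe sets that did not behave alike: the brightest changed by 0.08 between marrow and the IL-6 culture and the lowest-changing one by -1.61.

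The pathway upstream was looked at with lists of related genes, none of them shared with the 38. Of 9 measured interferon alpha, beta and zeta genes, the ligands, the mean over the list lay between 3.60 and 4.77 on all arrays. Ifnb1 stayed between 2.87 and 4.62. Ifnz (limitin) was the exception at 6.56, 6.57 and 7.95 in C26-GM tumor, where it rose by 1.92 from healthy spleen, and it was called again against C26-GM spleen (1.10). The 7.95 came from the third tumor array, which stood apart from its group, and the C26-GM spleen arrays lay at 5.71 to 6.32. Neither Ifnz call was checked without that array. Signals this low do not show whether a ligand is expressed.

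Of 9 measured receptor and signalling genes, 1 rose and 2 fell in C26-GM spleen, against 2.32% and 3.83% of all genes. Those that fell were the receptor chains: Ifnar1 measured 7.75, 7.52 and 7.87 against 8.82, 8.85 and 8.88 in healthy spleen and changed by -1.14, and Ifnar2 changed by -1.11. The gene that rose was Socs1, a feedback inhibitor of the receptor's kinases. Socs1 measured 8.27, 8.44 and 6.48 in C26-GM tumor and 4.30, 4.88 and 4.43 in healthy spleen, a rise of 3.19, and rose by 2.44 in EL-4 and by 1.42 in MCA203 tumor. It also rose from marrow in culture, by 1.59 with IL-6 and 2.21 with G-CSF. Ifnar2 changed by -1.41 in the IL-6 culture.

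Among 20 genes of nucleic acid sensing and interferon induction, 8 fell and 1 rose in fresh marrow against spleen. Over all genes 7.49% fell and 5.76% rose. The falls were led by Tlr7 (-2.32) and Tlr8 (-2.05), endosomal receptors of single-stranded RNA. Tlr3, the receptor of double-stranded RNA, rose by 1.30 in 4T1 and 2.05 in MCA203 tumor. Ikbke, a kinase that phosphorylates interferon regulatory factors, rose against healthy spleen in all 4 tumor infiltrates, by 1.54 to 1.94, and by 1.84 in C26-GM spleen. Its rise in fresh marrow was 1.91.

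In a second list of 49 other interferon-stimulated genes, 1 rose and 8 fell in C26-GM spleen, against 2.32% and 3.83% of all genes. MCA203 tumor had 7 and 2 (5.01% and 5.42%), and fresh marrow 0 and 19 (5.76% and 7.49%). The IL-6 culture had 3 and 15 (5.00% and 9.07%), and the G-CSF culture 2 and 13 (4.48% and 9.37%). The rises in the cultures were near the shares of all genes. These culture counts were not split by the width of the arrays. Ifitm1, a membrane restriction factor, was among the few that rose, by 1.77 in C26-GM spleen and by 3.56 and 3.65 in the cultures. Between strains Ifi202b measured 3.03, 3.52 and 3.53 in C57BL/6 spleen and 10.6, 10.6 and 10.3 in BALB/c spleen. Trim34a was higher in C57BL/6 by 4.33 and Apobec3 by 2.52. These genes are relatives of inflammasome sensors, a TRIM ubiquitin ligase and a cytidine deaminase that restricts retroviruses, in that order.

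Since interferon gamma induces part of the same genes, its own list of 15 measured genes was set beside them. Ifng measured 9.37, 9.70 and 10.1 in EL-4 and 8.01, 8.96 and 8.81 in MCA203 tumor, and at most 4.21 on every other array. Of the list, 10 rose and 1 fell in EL-4, against 6.42% and 4.40% of all genes. In MCA203 11 rose and 1 fell, against 5.01% and 5.42%. The medians of the list were 2.41 in EL-4 and 2.09 in MCA203. In the same contrasts the 38 type I genes had medians of -0.09 and 0.57. In 4T1 tumor 6 rose and 3 fell, against 6.83% and 5.44% of all genes. Those risen included Iigp1 (a GTPase against intracellular parasites, 2.45) and the chemokine Cxcl10 (1.76). Ifng itself changed by -1.11 there, between levels of at most 4.21, too low to show whether it is expressed. In C26-GM spleen 9 of the list fell and 0 rose, against 3.83% and 2.32% of all genes. In fresh marrow 12 fell and 0 rose, against 7.49% and 5.76%.

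**Figure D5:**
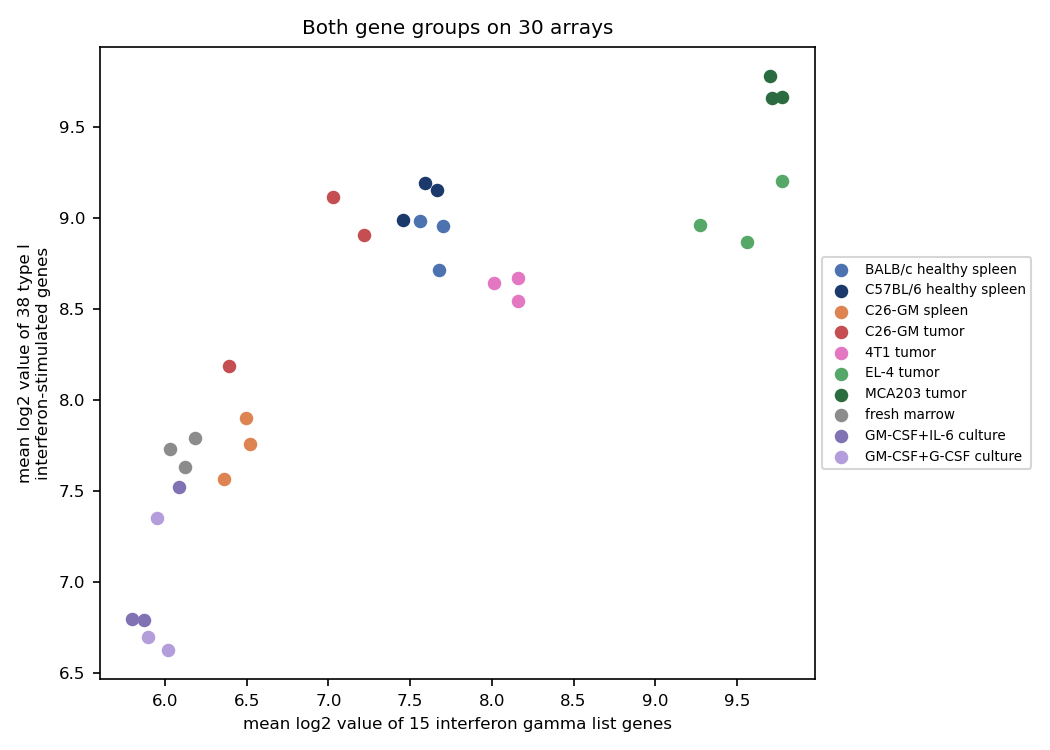
Mean log2 value of the 38 genes (vertical axis) against the mean log2 value of 15 interferon gamma list genes (horizontal axis) on each of the 30 arrays, coloured by group. EL-4 and MCA203 arrays share the right end of the horizontal axis (9.27 to 9.78) but differ on the vertical one, and 2 of the 3 C26-GM tumor arrays lie as high as the healthy spleens with a lower gamma list mean.

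Markers of other cells also moved, and their part in the changes above was not tested. The mean of 9 B cell markers was 8.44 to 9.23 on healthy spleen arrays, 5.87 to 6.22 in C26-GM spleen, 4.47 to 5.37 in C26-GM, 4T1 and MCA203 tumors, 7.17 to 7.37 in EL-4 tumor and 5.84 to 6.07 in fresh marrow. In C26-GM spleen 8 of these 9 fell, as did 5 of 10 T cell and 6 of 8 NK cell markers. There 5 of 13 monocyte and macrophage markers fell as well. Over all genes 3.83% fell in this contrast. Eosinophil markers fell in C26-GM spleen too, 4 of 5, with Prg2, a granule protein, at -5.11 and the chemokine receptor Ccr3 at -3.23. The mean of the 5 was 7.12 to 7.70 in BALB/c healthy spleen, 4.75 to 5.22 in C26-GM spleen and 3.42 to 4.81 in the 4 tumors, and was 7.29 to 7.86 in fresh marrow and 5.17 to 5.89 in the cultures, where Prg2 changed by -4.36 with IL-6 and -4.82 with G-CSF. In fresh marrow 11 of the 13 monocyte and macrophage markers fell and 6 of 10 neutrophil markers rose. Over all genes 7.49% fell and 5.76% rose there. In the cultures the monocyte mean was 7.15 to 7.62 against 8.77 to 9.11 in fresh marrow. In EL-4 and MCA203 tumors the means of 10 T cell markers were 7.65 to 7.90 and 7.40 to 7.80, against 5.74 to 5.98 in C57BL/6 spleen, and neutrophil markers were 7.21 to 7.96 and 6.60 to 6.92 against 11.9 to 12.0. NK cell markers averaged 7.81 to 8.56 in MCA203 tumor and 7.31 to 7.79 in EL-4 tumor, against 6.504 to 7.07 in C57BL/6 spleen. In MCA203 tumor 3 of 8 rose, against 5.01% of all genes: Prf1 by 3.44, Nkg7 by 3.05 and Klre1 by 2.18. In EL-4 tumor Prf1 had a mean of 8.175 against 6.00 in C57BL/6 spleen, and Nkg7 9.53 against 7.18. Klre1 had 5.80 against 5.54. Of 12 plasmacytoid dendritic cell markers, the cells best known for interferon alpha, the mean lay between 5.50 and 6.66 on all arrays, and Siglech between 4.97 and 6.65. Epithelial markers were highest in 4T1 and EL-4 tumors (8.07 to 8.59 and 6.22 to 9.37), and fibroblast markers, by group mean, in the same tumors (7.45 to 7.97 and 7.25 to 7.59). RMA values have no true zero, so none of these markers can be given as absent.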

How the data were processed

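RNA of CD11b+ cells was hybridised to Affymetrix whole-genome mouse expression arrays, 3 in each of 10 groups. The deposited values are log2 expression per probe set, made by the authors with RMA, per the submitters' processing notes. The sources used here do not state its version. Array medians lay between 4.85 and 5.15, and Pearson's r between arrays of a group was 0.941 to 0.995. The number of arrays limits the precision.

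Of 45101 probe sets, 34958 have 1 gene symbol in the platform annotation, 932 several and 9211 none. Only the first kind was used, the brightest per gene on average, which gave 18194 genes. Of the 38 genes described, 18 have several such probe sets.

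One linear model of all 10 groups was fitted with limma 3.58.1 (R 4.3.3). It used empirical Bayes moderation and Benjamini-Hochberg adjustment over all genes in each comparison. The procedure was run on simulated data with independent noise and the same spread for a gene in every group. Such data do not copy the unequal spread of the real groups. A gene was called where the adjusted p was below 0.05 and the change at least 1 (log2). No count of reads exists for arrays, so no depth is given.

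Named genes were, for each comparison, up to 6 called members with the largest rise and 6 with the largest fall, plus a fixed panel of 17. From related lists they were the ligands and receptor chains, Ifng, and up to 4 called genes with the largest change. Others named were chosen after their values were seen. The members and lists were chosen with earlier results of these data known.

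The model used no pairing by replicate number. In 0 of 13 comparisons did every same-numbered pair correlate above 0.1 once group means were removed. For C26-GM tumor and C26-GM spleen these r were 0.37, 0.06 and 0.47. Such values from 3 arrays cannot settle whether the same mice gave both. Alternatives were housekeeping centring, a filter on dim genes (the 40th percentile), the mean of all probe sets, no probe sets marked as matching several transcripts, only the compared groups, array weights, a replicate block, and leaving out each array. Settings on the culture arrays and on the third C26-GM arrays were added after seeing the data.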

Additional observations from a re-analysis of the deposited data

Results flagged for a closer look

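These members differed between tumor groups by a test of the difference itself (limma, adjusted over all genes). The tumor change was larger in C57BL/6 than in BALB/c for Oasl1 (1.16) and Zbp1 (1.10) and smaller for Oasl2 (-1.40). MCA203 exceeded EL-4 tumor for Ifit3 (2.02), Rsad2 (1.44), Phf11d (1.28), Usp18 (1.25), Ifit2 (1.21), Ifit1 (1.12), Rtp4 (1.10), Ifih1 (1.05) and Xaf1 (1.003). 4T1 lay below C26-GM tumor for Ifit1 (-1.59), Oas3 (-1.36), Irf7 (-1.31), Ifit3 (-1.06) and Samd9l (-1.01).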

How the results depend on the processing

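Of 125 called member values, recomputed 1773 times in all, 1614 kept their call, 159 kept their direction without the call and 0 turned. In this paragraph the share of all genes called in the same setting and direction stands in brackets. Housekeeping centring used 11 genes that include the interferon-inducible B2m. With it 0 members fell in C26-GM tumor (5.46%). In 4T1 tumor 0 rose (4.83%) and 8 fell (8.07%). In EL-4 tumor 0 rose (2.97%) and 9 fell (11.3%), and in MCA203 tumor 5 rose (2.70%). Housekeeping centring gave 3 higher between strains (0.896%), 0 risen in the IL-6 culture (3.03%) and 0 above in the tumor-by-strain difference (1.52%). Without probe sets marked as matching several transcripts, 1 rose in C26-GM tumor (4.02%), 0 in 4T1 (6.34%) and 0 in EL-4 (6.00%). Then 0 rose between strains (0.717%), 0 with IL-6 (4.55%) and 0 with G-CSF (4.16%). The tumor-by-strain difference held 1 above (2.62%) and 0 below (2.07%). That setting leaves out 7 members. Array weights gave 0 fallen in C26-GM tumor (6.97%), 2 risen in EL-4 (6.02%) and 2 between strains (0.704%). They gave 0 risen with IL-6 (10.2%), with G-CSF (8.68%) and between cultures (0.495%). With the compared groups only, 2 rose in EL-4 tumor (6.08%) and 10 in C26-GM tumor against spleen (2.39%). In that setting 0 rose between cultures (0.0110%) and 4 in the tumor-by-strain difference (3.05%). The dim filter gave 2 risen in EL-4 tumor (8.56%). The mean of all probe sets gave 0 risen in the IL-6 culture (3.89%) and 1 in the tumor-by-strain difference (2.48%).

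With the culture array set as a term, 4 rose and 7 fell with IL-6, against 8.20% and 4.46% of all genes. With G-CSF 2 rose and 7 fell in that setting, against 7.66% and 4.75%. The wide arrays alone gave 4 risen and 8 fallen with IL-6, 7 fallen with G-CSF and 0 between cultures, and the narrow ones 0 risen with IL-6. Leaving out 1 array at a time gave 1 to 4 fallen in C26-GM tumor, 1 to 2 risen and 3 to 5 fallen in 4T1, 3 to 6 fallen in 4T1 against C26-GM tumor, 5 to 10 risen in MCA203 against EL-4, 1 to 2 between strains, 0 to 2 risen with IL-6, 0 to 1 between cultures, and 0 to 3 above and 0 to 1 below in the tumor-by-strain difference. The causes of these shifts were not tested. Shares of all genes were not counted for single arrays left out, so those shifts cannot be set against them. The replicate block changed no call, with 17 fallen in C26-GM spleen and 22 in fresh marrow. Whether the numbers pair any samples is not known.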
